A study of Homo sapiens with 6 samples.

Results

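The mitochondrial ribosomal protein genes were taken from the count table of SK-MEL-28 cells, an established human melanoma cell line, as the protein-coding genes with a symbol of MRPL or MRPS followed by digits and an optional letter. This rule gave 77 of the 60504 genes in the table, 49 MRPL and 28 MRPS genes, and all 77 were among the 16195 genes that passed the filter on low counts. The members were expressed in every library, with 117 to 4724 counts each, and lay on 21 chromosomes. RNA was measured in 3 libraries of cells that had received an empty vector (EV, the control genotype) and 3 libraries of cells given a plasmid for HDAC8, a class I histone deacetylase. Both groups were transfected with a lipid reagent and kept in hygromycin, and the sources used here describe neither a time after transfection nor whether the cells were a pool or a clone. The comparison addresses how introduction of HDAC8 changed gene expression. The labels call the libraries biological replicates without saying whether they came from separate cultures, so p-values measure the spread between these libraries, which may be technical.

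Mitochondrial ribosomes translate the few proteins that mitochondrial DNA encodes, all of them subunits of the respiratory chain complexes and the ATP synthase. Their rRNAs are encoded in mitochondrial DNA, but their proteins are encoded in the nucleus, made in the cytosol and imported into the matrix, where the large (39S in mammals) and small (28S) subunits are assembled. Many of these proteins have bacterial counterparts, and others occur only in mitochondria. MRPL symbols were given to proteins of the large and MRPS symbols to proteins of the small subunit, although the proteins of MRPS18A and MRPS30 have since been placed in the large subunit, and MRPS36 is now known as a component of the 2-oxoglutarate dehydrogenase complex. The genes were grouped here by symbol.

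Library totals lay between 20850021 and 29822903 counts, so that a floor of 3 counts stood at 0.101 to 0.144 CPM (counts per 1000000 counts, with library sizes scaled by TMM factors). The level of HDAC8 itself did not separate the groups. It was at 16.6, 15.2 and 11.7 CPM in the EV-labelled libraries and 14.1, 15.2 and 13.4 CPM in the HDAC8-labelled libraries, with a log2 fold change of -0.024 (SE 0.13, edgeR adjusted p = 0.924). P-values were from the quasi-likelihood test of edgeR, and adjusted p-values used the Benjamini-Hochberg method over all genes tested. Since the introduced gene does not tell the groups apart, they are called by their labels, and fold changes are HDAC8-labelled over EV-labelled. All 6 melanocyte lineage markers examined (MITF, SOX10, PMEL, MLANA, TYR and DCT) passed the filter, but they were not level between the groups. At an edgeR adjusted p below 0.05, TYR (log2 fold change 0.44), PMEL (0.34) and SOX10 (0.23) rose. DCT (-1.77) and MITF (-0.14) fell, and MLANA did not pass (-0.077, edgeR adjusted p = 0.340). Markers of other cell types were mixed. PTPRC, CD3E, COL1A2, CDH5, KRT5, KRT14 and TP63 had at most 5 counts in each library, DCN and PECAM1 at most 17, COL1A1 17 to 57, VWF 54 to 92 and PDGFRB 72 to 146. The leukocyte list's CD68, a lysosomal protein gene, had 556 to 803 counts (log2 fold change -0.028, edgeR adjusted p = 0.854). The fibroblast list's LUM, which encodes a matrix proteoglycan, had 808 to 1410 counts and rose (log2 fold change 0.44, edgeR adjusted p = 0.000615), and its part in the results was not tested.

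The mitochondrial ribosomal protein genes as a whole stayed at nearly the same level in both groups. Summed over the 77 genes, the level was 3110, 3059 and 3095 CPM in the EV-labelled libraries and 3099, 3153 and 2954 CPM in the HDAC8-labelled libraries. The HDAC8-labelled libraries were thus both the highest and the lowest, and the groups overlapped. The means were 3088 ± 26.3 (SD, n = 3) and 3069 ± 103 CPM (SD, n = 3), and the mean of the HDAC8-labelled libraries was 0.625% below the other. The members took between 0.298% and 0.315% of all counts. As in any bulk measurement, fewer cells with a transcript and less transcript per cell cannot be told apart.

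By edgeR, with an adjusted p under 0.05 required, 3 members rose (MRPL53, MRPL34 and MRPL28) and 4 fell (MRPS6, MRPL15, MRPS23 and MRPS18B) in the HDAC8-labelled libraries. Of all genes tested, 11.1% were called higher and 11.7% lower, and 22.7% were called in either direction. The members' share, 7 of 77 or 9.09%, was below this, and also below the 26.5% called among the 9270 genes in the same range of mean CPM. By symbol, 3 of the 49 MRPL genes rose and 1 fell, and 0 of the 28 MRPS genes rose and 3 fell. Whether the subunits differed was not tested. With an absolute log2 fold change at or beyond 0.58 required as well, 0 members were called by edgeR, against 7.52% of all genes, and 0 by DESeq2. Without adjustment, 21 members (27.3%) had an edgeR p below 0.05, against 33.7% of all genes tested and 39.0% of those in the same range of mean CPM.

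The log2 fold changes of the members lay close together. They ranged from -0.34 to 0.44, with a median of 0.024 and quartiles of -0.10 and 0.11, and 44 were positive and 33 negative. Over all genes tested, the median was 0.0091 and the quartiles were -0.18 and 0.20. The SD of the log2 fold changes was 0.17 over the members, 0.39 over the genes in the same range of mean CPM and 0.63 over all genes tested. A log2 fold change within 0.25 of 0 was found for 65 members, or 84.4%, against 72.7% of the genes in the same range of mean CPM and 59.9% of all genes tested. The median was 0.025 for the MRPL genes and 0.0014 for the MRPS genes. The 3 libraries of each group did not overlap for 9 members with higher and 18 members with lower values in the HDAC8-labelled libraries, whereas 18.7% and 19.4% of all genes were separated in these directions.

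**Figure D1:**
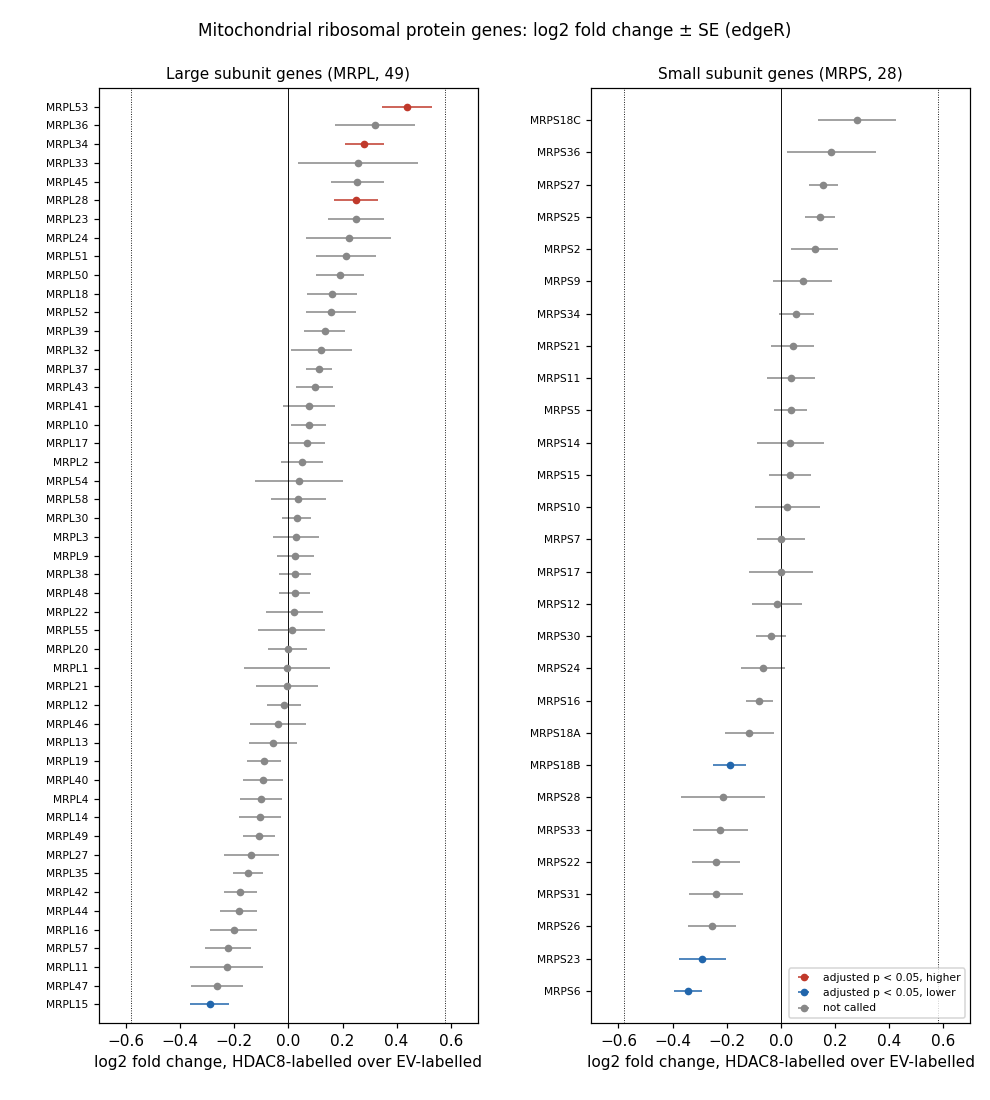
The log2 fold change (HDAC8-labelled over EV-labelled, x axis) of each of the 77 genes (y axis), MRPL genes left and MRPS genes right, with horizontal bars for the standard error from edgeR. The points lie between -0.34 and 0.44, inside the dotted lines at 0.58 on either side of 0, and the 7 coloured genes passed an adjusted p of 0.05.

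Of the genes that rose, MRPL53 had the highest log2 fold change of the 77. It encodes a large-subunit protein that occurs only in mitochondria and lies on the minus strand of chromosome 2 (74471982 to 74472687, GENCODE 44 on GRCh38). MRPL53 was at 22.2, 20.8 and 24.0 CPM in the EV-labelled and 28.8, 33.9 and 28.3 CPM in the HDAC8-labelled libraries. Each HDAC8-labelled library was above each EV-labelled one. The log2 fold change of MRPL53 was 0.44 (SE 0.093, edgeR adjusted p = 0.00507). On the same strand, 499 of its exon bases are also annotated as exon of CCDC142, the table holds 1 pseudogene named after it, and its counts were not whole in any library. Where its divided reads came from was not tested. CCDC142 had a log2 fold change of 0.081 (edgeR adjusted p = 0.731).

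MRPL34 and MRPL28 encode large-subunit proteins with bacterial counterparts. MRPL34 (chromosome 19, 17292609 to 17306843, plus strand) was at 24.2, 23.2 and 23.6 CPM in the EV-labelled and 28.4, 29.6 and 28.3 CPM in the HDAC8-labelled libraries. Both groups were narrow and did not overlap, and the log2 fold change was 0.28 (SE 0.072, edgeR adjusted p = 0.0153). The edgeR adjusted p of MRPL34 was 0.0552 without EV replicate 2, 0.0578 without EV replicate 3 and 0.0660 without HDAC8 replicate 2. MRPL28 (chromosome 16, 366969 to 371289, minus strand) was at 39.6, 38.4 and 39.1 CPM in the EV-labelled and 47.8, 50.7 and 41.0 CPM in the HDAC8-labelled libraries. HDAC8 replicate 3 lay close to the EV-labelled libraries. On the same strand, 223 exon bases of MRPL28 are also annotated as exon of PGAP6, and the counts of MRPL28 were whole in every library. The log2 fold change of MRPL28 was 0.25 (SE 0.080, edgeR adjusted p = 0.0434), and the call was lost in 7 of 12 alternative settings. With 1 library left out, its edgeR adjusted p was 0.111, 0.127 and 0.123 without EV replicates 1, 2 and 3, and 0.120 and 0.194 without HDAC8 replicates 1 and 2.

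Among the genes that fell, MRPS6, which encodes a small-subunit protein with a bacterial counterpart, had the lowest log2 fold change of the members. MRPS6 was at 94.4, 88.6 and 93.2 CPM in the EV-labelled and 73.0, 71.6 and 73.2 CPM in the HDAC8-labelled libraries. The groups were well apart, with means of 92.1 ± 3.06 and 72.6 ± 0.884 CPM (SD, n = 3 each) and a log2 fold change of -0.34 (SE 0.053, edgeR adjusted p = 0.000618). The gene lies on the plus strand of chromosome 21 (34073224 to 34143034). Its canonical transcript starts at the same base, 34073578, as that of SLC5A3, which encodes a myo-inositol transporter, and the genes share 265 exon bases. SLC5A3 fell from 1445 ± 23.1 to 915 ± 14.2 CPM (SD, n = 3 each), a log2 fold change of -0.66 (SE 0.037, edgeR adjusted p = 1.51e-07). The counts of MRPS6 were not whole in any library, and how reads from the shared exon were divided between the genes was not tested.

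MRPL15 (chromosome 8, 54135241 to 54148514, plus strand), a large-subunit protein gene with a bacterial counterpart, was at 63.0, 61.0 and 59.7 CPM in the EV-labelled and 54.5, 50.3 and 45.1 CPM in the HDAC8-labelled libraries. The groups did not overlap. The log2 fold change of MRPL15 was -0.29 (SE 0.073, edgeR adjusted p = 0.0129, and 0.0632 without EV replicate 1). MRPS23 (chromosome 17, 57834781 to 57850056, minus strand), which encodes a small-subunit protein that occurs only in mitochondria, was at 58.1, 59.9 and 51.0 CPM in the EV-labelled and 50.1, 46.7 and 41.0 CPM in the HDAC8-labelled libraries. EV replicate 3 and HDAC8 replicate 1 were nearly level. The log2 fold change of MRPS23 was -0.29 (SE 0.086, edgeR adjusted p = 0.0296), and the call was lost in 4 of 12 alternative settings. Its edgeR adjusted p was 0.113 without EV replicate 1, 0.119 without EV replicate 2, 0.0630 without HDAC8 replicate 2 and 0.0584 without HDAC8 replicate 3.

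MRPS18A, MRPS18B and MRPS18C are paralogs related to a single bacterial protein, and only the MRPS18C protein takes its place in the small subunit. MRPS18B (chromosome 6, 30617840 to 30626395, plus strand) was at 84.8, 77.7 and 82.0 CPM in the EV-labelled and 69.1, 69.3 and 76.1 CPM in the HDAC8-labelled libraries. The groups of MRPS18B were separated by a narrow gap, and its log2 fold change was -0.19 (SE 0.061, edgeR adjusted p = 0.0455). This call was lost in 6 of 12 alternative settings, with an edgeR adjusted p of 0.174 and 0.135 without EV replicates 1 and 3, and 0.112 and 0.124 without HDAC8 replicates 1 and 2. MRPS18A was at 36.5, 31.1 and 33.0 CPM in the EV-labelled and 29.98, 34.4 and 28.5 CPM in the HDAC8-labelled libraries, and its groups overlapped (log2 fold change -0.12, edgeR adjusted p = 0.407). MRPS18C was at 10.2, 11.2 and 10.4 CPM against 13.8, 14.8 and 10.04 CPM, where HDAC8 replicate 3 was the lowest of the 6 libraries (log2 fold change 0.28, SE 0.14, edgeR adjusted p = 0.201). Without HDAC8 replicate 3, MRPS18C had a log2 fold change of 0.42 and an edgeR adjusted p of 0.0217. Whether the changes of the paralogs differed from each other was not tested. Per kilobase of canonical transcript, MRPS18B was the most abundant of the 3 at 54.7 CPM per kb, followed by MRPS18A at 27.7 and MRPS18C at 7.56.

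**Figure D2:**
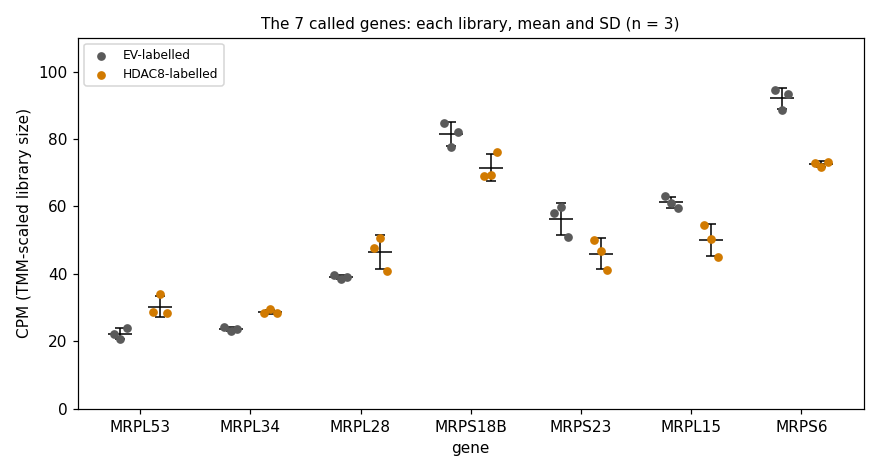
Levels in CPM (y axis, from 0) of the 7 genes that passed the test (x axis) in each EV-labelled (grey) and HDAC8-labelled (orange) library, with the mean and SD of 3 libraries in black. The groups do not overlap for any of the 7, and the gap is wide for MRPS6 (88.6 to 94.4 against 71.6 to 73.2 CPM) and narrow for MRPS23 (51.0 against 50.1 CPM at the nearest).

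The promoters of 3 of these genes are shown because they are the genes with the highest and the lowest log2 fold change and a paralog that fell. The windows are from RefSeq (GRCh38.p14), on the strand of the gene, from 250 bases before to 50 bases after the transcript start, and capitals mark matches on either strand to the core motifs of ETS factors such as GABPA (CCGGAAG), YY1 (AAGATGGC) or NRF1 (GCGCATGC), which are known regulators of nuclear genes for mitochondrial proteins. They are chr2:74472631-74472930 (minus strand) for MRPL53, chr6:30617590-30617889 (plus strand) for MRPS18B and chr21:34073328-34073627 (plus strand) for MRPS6.
MRPL53: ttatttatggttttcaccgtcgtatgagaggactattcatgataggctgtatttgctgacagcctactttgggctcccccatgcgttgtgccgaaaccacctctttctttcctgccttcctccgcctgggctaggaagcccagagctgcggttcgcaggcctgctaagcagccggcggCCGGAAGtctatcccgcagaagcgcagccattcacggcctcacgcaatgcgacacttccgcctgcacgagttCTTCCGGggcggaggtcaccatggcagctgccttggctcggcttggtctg
MRPS18B: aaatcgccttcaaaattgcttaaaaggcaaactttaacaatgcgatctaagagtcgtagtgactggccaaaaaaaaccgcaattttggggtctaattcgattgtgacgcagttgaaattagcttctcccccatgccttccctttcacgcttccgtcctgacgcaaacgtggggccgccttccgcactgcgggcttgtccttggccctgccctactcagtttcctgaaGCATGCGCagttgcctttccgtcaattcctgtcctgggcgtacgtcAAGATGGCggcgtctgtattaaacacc
MRPS6: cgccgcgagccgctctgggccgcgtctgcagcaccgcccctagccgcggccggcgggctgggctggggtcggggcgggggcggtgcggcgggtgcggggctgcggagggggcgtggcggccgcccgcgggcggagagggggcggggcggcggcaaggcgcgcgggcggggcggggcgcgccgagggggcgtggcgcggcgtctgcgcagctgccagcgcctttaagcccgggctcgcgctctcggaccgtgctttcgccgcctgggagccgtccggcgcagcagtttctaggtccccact
The MRPL53 window holds the ETS core on both strands, the MRPS18B window holds an NRF1 core followed by a YY1 core, and the MRPS6 window, whose transcript start is shared with SLC5A3, holds none of these letters.

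The core motifs were common among the members. A window was found for 68 of the 77 members, and 30 of them (44.1%) held the ETS core, against 14.8% of the windows of 15324 protein-coding genes. The YY1 core was in 21 members' windows (30.9%), against 4.16%, and the NRF1 core in 6 (8.82%), against 4.39%. At least 1 of the 3 cores was in 44 windows (64.7%), against 21.2%. The 15324 genes were more than the 12985 protein-coding genes tested here, so the shares were not matched for expression. Of the called genes with a window, MRPL28 and MRPS23 held the ETS core as MRPL53 did, and MRPL34 held none of the 3. So the called genes included windows with and without each core, and a match describes the letters only.

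The members were also often arranged head to head with another gene. For 26 of the 77 (33.8%), a protein-coding gene on the opposite strand started within 1000 bases upstream of the canonical start, against 9.46% of 20045 protein-coding genes in GENCODE 44. All 77 passed the filter on low counts, whereas the 20045 were not limited to expressed genes, so these shares were not matched for expression. MRPS11 and MRPL46, members themselves, start 320 bases apart, with log2 fold changes of 0.037 and -0.039. MRPL43 starts 46 bases from TWNK, the mitochondrial DNA helicase gene, with log2 fold changes of 0.097 and 0.077, and MRPS12 starts 181 bases from SARS2, a mitochondrial seryl-tRNA synthetase gene, with -0.015 and 0.0015. Not all other pairs stayed near 0 together. Of the 26 partners, 5 were called, 3 higher and 2 lower, against 22.7% of all genes tested, and none was beside a called member. The log2 fold changes of 16 of the 26 pairs had the same sign. MRPS11 and MRPL46 were counted from each side here, with opposite signs. CYB5RL, beside MRPL37 (0.11), fell with -0.43 and HIRA, beside MRPL40 (-0.095), with -0.30 (edgeR adjusted p = 0.00986 and 0.00286). NCAPD2, beside MRPL51 (0.21), rose with 0.23, FAU, beside MRPL49 (-0.11), with 0.17 and APBA3, beside MRPL54 (0.039), with 0.30 (edgeR adjusted p = 0.00133, 0.0388 and 0.0484). Of the 7 called members, only MRPS18B had such a partner, PPP1R10, which starts 597 bases away and had a log2 fold change of 0.14 (edgeR adjusted p = 0.0961).

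The levels of the members spanned a 31.5-fold range when divided by the length of the canonical transcript. The median was 24.6 CPM per kb. The highest mean was that of MRPL12 at 109 CPM per kb, whose protein forms the stalk of the large subunit and also binds the mitochondrial RNA polymerase, followed by MRPL37 at 107 and MRPS6 at 88.4. The lowest means were those of MRPS33 at 3.46, MRPL42 at 4.35 and MRPL50 at 5.54 CPM per kb, which all encode proteins that occur only in mitochondria. Canonical transcripts ranged from 496 bases for MRPL53 to 15557 bases for MRPL42, and a level per length depends on which transcript the cells use. Over the 77 genes, the Pearson correlation of the log2 fold change with log2 transcript length was -0.27, against -0.039 over 10496 other genes, and with log2 mean CPM it was -0.18. The members' deviations from the group mean in single libraries had correlations with log2 transcript length as large. These ran from -0.31 in HDAC8 replicate 2 to 0.21 in EV replicate 1. All these correlations describe genes measured in the same 6 libraries, which are not independent replicates.

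MRPL12 was at 105, 111 and 116 CPM in the EV-labelled and 105, 118 and 105 CPM in the HDAC8-labelled libraries. The groups of MRPL12 overlapped, with a log2 fold change of -0.016 (SE 0.063, edgeR adjusted p = 0.892). MRPL37 was at 156, 152 and 148 CPM against 160, 161 and 172 CPM, a separation without overlap that was small in size, with a log2 fold change of 0.11 (edgeR adjusted p = 0.131). MRPL58, the peptidyl-tRNA hydrolase of the large subunit that releases stalled chains, was at 19.3, 17.03 and 18.5 CPM against 18.3, 21.1 and 16.9 CPM, with a log2 fold change of 0.037 (edgeR adjusted p = 0.848).

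The 3 genes lowest per kilobase also kept to small differences, although MRPL42 was not low in CPM. MRPS33 was at 16.3, 15.5 and 15.4 CPM in the EV-labelled and 14.8, 12.8 and 12.6 CPM in the HDAC8-labelled libraries, without overlap, but its log2 fold change of -0.22 did not pass the test (edgeR adjusted p = 0.149). MRPL42 was at 69.7, 72.8 and 72.8 CPM against 67.6, 63.3 and 59.4 CPM, again without overlap (log2 fold change -0.18, edgeR adjusted p = 0.0627), and was called in 3 of 12 alternative settings. MRPL50 was at 16.1, 17.3 and 18.3 CPM against 18.9, 20.8 and 19.4 CPM (log2 fold change 0.19, edgeR adjusted p = 0.163). 

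The libraries did not contribute equally to the spread of the members. The median over the 77 genes of the deviation from the group mean, on the log2 CPM scale, was 0.00016, -0.015 and 0.0056 in the EV-labelled libraries and 0.021, 0.040 and -0.070 in the HDAC8-labelled libraries. HDAC8 replicate 3 was below its group mean for 55 members and the lowest of the 6 libraries for 32, whereas HDAC8 replicate 2 was the highest for 24. Taken from the group mean, the median deviation in HDAC8 replicate 3 was -0.070 for the members. It was -0.0072 for the other tested genes at or above the lowest mean CPM of the members. The share of counts from the 13 protein genes of mitochondrial DNA was also the lowest in this library, at 1.17% against 1.30% to 1.53% in the other 5. Between HDAC8 replicate 3 and the other HDAC8-labelled libraries the chi-square statistic of the members' counts was 8.77 and 7.19 per degree of freedom. It was 2.89 to 3.54 for the other pairs within a group, so each library differed from its replicates by more than counting error. Over 15926 and 15713 genes, the same pairs with HDAC8 replicate 3 had 17.4 and 15.5, against 4.59 to 12.3 for the other pairs. By this statistic, the pairs with HDAC8 replicate 3 were thus the highest over all genes compared as well as over the members. The other pairs reached 12.3, and the median deviation of the other genes was near 0. Without HDAC8 replicate 3, 12 members were called, 9 higher and 3 lower, or 15.6%, against 24.7% of all genes. Gained were MRPL24, MRPL33, MRPL45, MRPL51, MRPS9 and MRPS18C, and MRPS23 was lost.

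**Figure D3:**
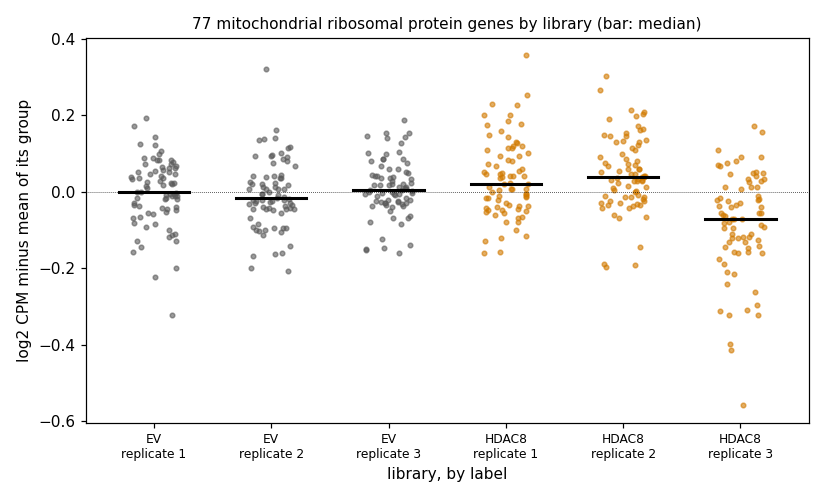
Deviation of the log2 CPM of each of the 77 genes from the mean of its own group (y axis), by library (x axis), with EV-labelled libraries in grey, HDAC8-labelled in orange and black bars for the medians. The median of HDAC8 replicate 3 is -0.070, below those of the other 5 libraries, which lie between -0.015 and 0.040.

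Of the members with a mean of at least 10 CPM, MRPL24, MRPS28 and MRPS36 had the largest SD of log2 CPM within groups, 0.28, 0.26 and 0.24. MRPL24, a large-subunit protein gene, was at 14.995, 19.7 and 18.4 CPM in the EV-labelled and 23.1, 23.6 and 15.3 CPM in the HDAC8-labelled libraries. The highest values and a value near the lowest thus belonged to the same group, and the log2 fold change of 0.22 had an edgeR adjusted p of 0.361. MRPS28 was at 15.4, 16.2 and 16.8 CPM against 15.1, 16.5 and 10.1 CPM, with HDAC8 replicate 3 far below the rest (log2 fold change -0.21, edgeR adjusted p = 0.370). MRPS36 was at 8.91, 10.6 and 9.32 CPM against 13.9, 9.28 and 9.53 CPM, and here HDAC8 replicate 1 alone was high (log2 fold change 0.19, edgeR adjusted p = 0.474). The ratio of the summed MRPL to the summed MRPS levels was 1.63, 1.68 and 1.68 in the EV-labelled and 1.73, 1.77 and 1.69 in the HDAC8-labelled libraries. These groups did not overlap, but HDAC8 replicate 3 was close to the EV-labelled libraries. The separation also depended on MRPS6, which fell from 92.1 to 72.6 CPM and shares exon bases with SLC5A3. With MRPS6 left out of the MRPS sum, the groups overlap. An exact permutation test of 3 against 3 libraries cannot go below a two-sided p of 0.10.

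Several members shared their small shift with the genes around them. For each member, the median log2 fold change was taken over the other tested genes within 5 Mb that had a mean of at least 1 CPM. The medians lay within 0.15 of 0 around 69 members and beyond it around 8. MRPL36, with a log2 fold change of 0.32, lay among genes with a median of 0.32. MRPL47 (-0.26), MRPS26 (-0.25), MRPS31 (-0.24) and MRPL57 (-0.22) lay among genes with medians of -0.32, -0.27, -0.27 and -0.23. These 5 genes were picked for their neighbourhoods after the values were seen, and none passed an edgeR adjusted p of 0.05. By contrast, MRPL3 (0.029) and MRPL13 (-0.056) stayed near 0 among genes with medians of -0.20 each.

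Of the called members, MRPL15 lay among 19 such genes with a median of -0.20, 9 of them called. MRPS6 lay among 44 with a median of -0.10, and for the other 5 called members the medians were between -0.016 and 0.077. Over the 77 members the Pearson correlation of the log2 fold change with the neighbourhood median was 0.48, and it was 0.44 without MRPL36 and 0.25 over the 69 members with a median within 0.15 of 0. Over 9163 other genes in the same range of mean CPM it was 0.25. The bound of 0.15, the value without MRPL36 and the naming of MRPL3 and MRPL13 were also chosen after the values were seen. Neighbourhoods of nearby genes overlap and all come from the same 6 libraries, and DNA copy number was not measured.

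**Figure D4:**
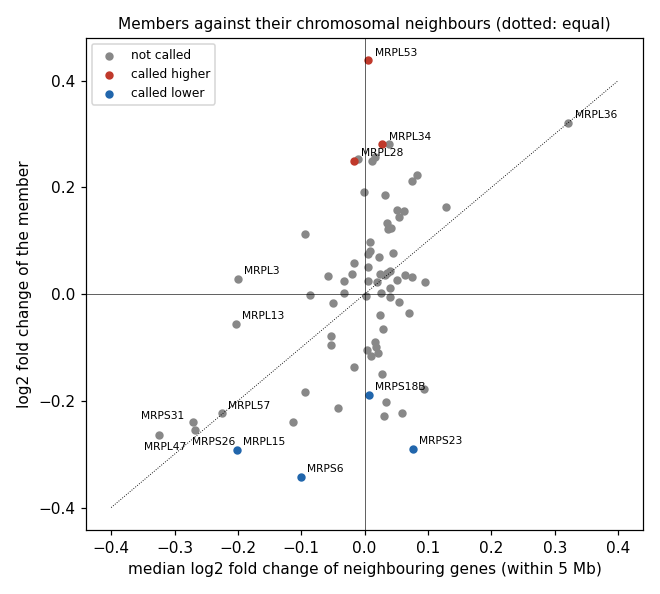
The log2 fold change of each of the 77 genes (y axis) against the median log2 fold change of the other genes within 5 Mb (x axis), with the dotted line where both are equal and colours for genes that passed the test. MRPL36 (0.32 against 0.32) and MRPL47 (-0.26 against -0.32) lie near the line, and MRPL53 (0.44 against 0.0060) and MRPS23 (-0.29 against 0.077) lie far from it.

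Genes that act with the mitochondrial ribosome were read from the same fit. Of the 5 subunits without an MRP symbol, 0 were called by edgeR, against 22.7% of all genes, and 1 had an unadjusted p below 0.05. DAP3, PTCD3, CHCHD1, AURKAIP1 and GADD45GIP1 had log2 fold changes of -0.10, 0.032, 0.0072, -0.00015 and 0.22, with edgeR adjusted p-values between 0.112 and 0.999. Of 14 translation factors tested, 1 fell and 0 rose, or 7.14% against 22.7% of all genes, with a median of -0.035. The gene that fell was GFM1, the elongation factor G of mitochondria, at 80.4, 76.3 and 71.8 CPM in the EV-labelled and 63.6, 65.4 and 58.02 CPM in the HDAC8-labelled libraries (log2 fold change -0.29, edgeR adjusted p = 0.00805). The groups of GFM1 did not overlap, and its edgeR adjusted p was 0.0520 without EV replicate 1.

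Of 27 factors that assemble the ribosome or modify its rRNA, 4 fell and 1 rose, and the median was -0.099. RCC1L, a pseudouridine synthase module component, fell from 72.3 ± 4.17 to 56.2 ± 1.42 CPM (SD, n = 3 each; log2 fold change -0.36, edgeR adjusted p = 0.00115). MTERF3, a regulator of mitochondrial transcription and ribosome assembly, fell from 20.1 ± 0.938 to 14.9 ± 1.71 CPM (log2 fold change -0.43, edgeR adjusted p = 0.0100), and MTERF1, which binds mitochondrial DNA behind the rRNA genes, fell with -0.32 (edgeR adjusted p = 0.0110). RPUSD3, a mitochondrial pseudouridine synthase gene, fell with -0.20 (edgeR adjusted p = 0.0466), and NOA1, a GTPase of assembly, rose with 0.23 (edgeR adjusted p = 0.0476). The call of NOA1 was lost in 10 of 12 alternative settings, DESeq2 and each left-out library among them, with an adjusted p of up to 0.160. That of RPUSD3 was lost in 9, DESeq2 and 5 of the 6 left-out libraries among them, with an adjusted p of up to 0.145, and that of MTERF3 without EV replicate 1 (edgeR adjusted p = 0.0541). The share called, 18.5%, was below the 22.7% of all genes.

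Among 17 mitochondrial aminoacyl-tRNA synthetase genes, which charge the tRNAs used by the ribosome, 3 rose and 1 fell. This share, 23.5%, was near the 22.7% of all genes, and the median was 0.032. IARS2 rose from 188 ± 2.30 to 225 ± 5.65 CPM (SD, n = 3 each; log2 fold change 0.26, edgeR adjusted p = 0.00116). NARS2 rose with 0.23 and AARS2 fell with -0.27 (edgeR adjusted p = 0.0435 and 0.0226). The call of NARS2 was lost in 6 of 12 alternative settings, including without each library except HDAC8 replicate 3, with an adjusted p of up to 0.171. That of AARS2 was lost without EV replicate 1, 2 or 3 or HDAC8 replicate 1 (edgeR adjusted p = 0.0884, 0.0524, 0.0734 and 0.0720). Of 10 genes for mitochondrial transcription and mRNA stability, 2 were called, or 20%, against 22.7% of all genes. SLIRP, an mRNA-stabilising protein gene, rose with a log2 fold change of 0.39 (edgeR adjusted p = 0.0352). TFAM, the transcription and packaging factor of mitochondrial DNA, fell with -0.22 (edgeR adjusted p = 0.0459). The edgeR adjusted p of SLIRP was 0.153 and 0.0993 without EV replicates 1 and 3, and 0.118 and 0.131 without HDAC8 replicates 1 and 2. That of TFAM was 0.136, 0.0779 and 0.152 without EV replicates 1, 2 and 3. Of 9 nuclear regulators of mitochondrial genes, 1 was called, or 11.1%, against 22.7% of all genes. YY1 fell, at 147, 147 and 142 CPM in the EV-labelled and 131, 128 and 127 CPM in the HDAC8-labelled libraries (log2 fold change -0.18, edgeR adjusted p = 0.0163). With EV replicate 1 or 2 left out, its edgeR adjusted p was 0.0705 or 0.0543.

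The 13 protein genes of mitochondrial DNA are the templates of these ribosomes. By edgeR with all 6 libraries, 0 were called in either direction, against 22.7% of all genes. Of the 13, 3 had an unadjusted edgeR p below 0.05, and DESeq2 called 0. The edgeR count depended on 1 library. Without HDAC8 replicate 3, edgeR called 12 of the 13 higher, where 24.7% of all genes were called in either direction. With no filter on low counts it called 8 higher, where 13.8% of all genes were called in either direction. The log2 fold changes of the 13 genes ranged from -0.0088 to 0.62 with a median of 0.20, and 12 were positive. Summed, they were at 13007, 14211 and 13730 CPM in the EV-labelled and 15334, 15774 and 11623 CPM in the HDAC8-labelled libraries. HDAC8 replicates 1 and 2 were above, and HDAC8 replicate 3 below, every EV-labelled library.

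Shared sequence limits the counts of some members. The table holds 75 pseudogenes with MRPL or MRPS symbols, 33 members have at least 1 named after them, and the pseudogene counts came to 0.203% to 0.290% of the members' counts in a library. For 24 members at least 1 count was not whole, among them the called genes MRPL53, MRPL34 and MRPS6, and for 53 all counts were whole. Exon bases were shared with another gene on the same strand for 18 members and on the opposite strand for 30.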

How the data were processed

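The deposited table holds the authors' estimated counts, not normalized, of Ensembl genes in 6 SK-MEL-28 libraries. The submitters' processing notes name GRCh38, Trimmomatic, STAR, RSEM and DESeq2, while the annotation release is not given in the sources used here. The labels name rRNA depletion and a stranded library kit, whereas the Methods name another RNA and library kit. A second deposited table, of the authors' log2 fold changes, p-values and group means, was not used.

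Counts were rounded, filtered with filterByExpr and tested by the quasi-likelihood functions of edgeR 4.0.16 under R 4.3.3, after TMM scaling and without a block. All 16195 genes kept entered the Benjamini-Hochberg adjustment, with a threshold of 0.05. DESeq2 1.42.0 was an alternative. CPM used TMM library sizes, and log2 CPM a pseudocount of 0.5. Positions, exons and canonical transcripts are from GENCODE 44, and neighbours were counted within 5 Mb. On counts simulated for 15888 genes, edgeR recovered 185 of 200 changed genes with 12 false calls. Recovery at log2 fold changes as small as those of the members was not tested separately. Library totals lay between 20850021 and 29822903 counts, and the floor of 3 counts covers counting error only.

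The members and lists were chosen with earlier results of these data known. Named were the members called, the 3 highest and 3 lowest per length, the 3 most variable with at least 10 CPM, MRPS18A, MRPS18B, MRPS18C, MRPL12, MRPL58 and HDAC8, and called genes of the other lists. Of genes matching the symbol rule, 1 is not reported here, nor are the values of 1 gene of the other lists. Alternatives were DESeq2, upper-quartile normalization, library totals, other filters, the replicate number as a block, a fold threshold of 0.58 and each library left out.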

Additional observations from a re-analysis of the deposited data

How the results depend on the processing

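The members called, 3 higher and 4 lower, were 8 lower with library totals only, 5 higher with no filter on low counts, and 0 in each direction with the fold threshold of 0.58. In either direction, 13.0% of the members were called with library totals only, against 23.0% of all genes tested. With no filter on low counts, the members' share was 13.0%, near the 13.8% of the 30137 genes then tested. Leaving out 1 library gave 1 to 9 higher and 1 to 7 lower members: 1 lower without EV replicate 1, 1 higher without EV replicate 3, 7 lower without HDAC8 replicate 1, 1 higher and 2 lower without HDAC8 replicate 2, and 9 higher without HDAC8 replicate 3. The cause was not tested, and these fits use fewer libraries. In them, 3.90% to 15.6% of the members were called in either direction, against 15.1% to 24.7% of all genes tested. MRPL53 and MRPS6 were called in all 12 alternative fits, MRPL15 in 11, MRPL34 in 9, MRPS23 in 8, MRPS18B in 6 and MRPL28 in 5. Same-numbered libraries did not deviate together (correlations of -0.049, -0.12 and -0.076), and a fit with a replicate block called 5 members, without MRPL28 and MRPS18B, of 3083 genes in all. Of the named genes of the other lists, NOA1, RPUSD3 and TFAM also lost their call with the block, and NOA1, SLIRP and NARS2 with library totals only. The members' median log2 fold change lay between -0.0061 and 0.033 over these fits. Precision at low levels is limited by depth: 3 counts were 0.101 to 0.144 CPM.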
